A study of Rattus norvegicus with 9 samples.

Results

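The rat liver transcriptomes were examined for 10 genes of bile acid synthesis and of its feedback control: Cyp7a1, Cyp8b1, Cyp27a1, Cyp7b1, Akr1d1, Amacr, Slc27a5, Baat, Nr1h4 and Nr0b2. The genes were chosen by name from the pathway, with earlier results of these data known. All 10 were found among the 32883 genes of the table. Polyadenylated liver RNA was sequenced from 9 male Sprague-Dawley rats, 1 library per rat, in 3 groups of 3: normal control (N1, N3, N12), DEN model (M13, M17, M24) and PZH administration (G27, G28, G42). Rats of the DEN model and PZH administration groups both received the liver carcinogen diethylnitrosamine (DEN, 0.01%) by weekly injection into the peritoneum over 16 weeks, and rats of the PZH administration group also received Pien Tze Huang (PZH), a Chinese patent medicine. The normal control rats received neither agent. The treatment tag of the M rats also reads PZH, so their group was taken from the letter in their titles. The age of the rats, the PZH dose and the week of collection of the sequenced rats were not given in the sources used here. The study had a low-dose and a high-dose PZH group and killed rats at several weeks. The sequenced rats of a group may therefore differ in week, and those given PZH also in dose. Livers were taken after a fast, and Cyp7a1 is known to vary with feeding and with the hour of the day.

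Bile acids are made from cholesterol in hepatocytes. In the classic pathway CYP7A1 places the first hydroxyl group and sets the rate, CYP8B1 adds the hydroxyl group that makes cholic acid, and in the alternative pathway CYP27A1 and CYP7B1 begin from the side chain. Reduction of the ring, shortening of the side chain in peroxisomes and joining to taurine or glycine follow. The product bile acids bind FXR, the nuclear receptor encoded by Nr1h4, which induces Nr0b2 (the repressor SHP), and SHP in turn lowers transcription of Cyp7a1 and Cyp8b1. PZH itself is made in part from bovine gallstone and snake gall, which hold bile acids and bile pigments.

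Total counts per library lay between 14922973 and 27161496, and every member had at least 97 counts in every rat, so that depth did not limit their detection. Values are given as CPM, the reads of a gene scaled to a common library size, after scaling by the trimmed mean of M values (TMM), whose factors were 0.731 to 0.799 in the normal control, 1.21 to 1.58 in the DEN model and 0.863 to 0.941 in the PZH administration group. Because these factors separated the groups, the scaling bears on each fold change: with library totals alone the all-gene median log2 fold change moved from 0.03 to 0.89 for the DEN model against the normal control, and from 0.01 to -0.67 for PZH administration against the DEN model. Over all genes, the first of these comparisons gave 3612 genes higher and 2917 lower with TMM but 8126 and 958 with library totals, and the second gave 1245 and 1477 with TMM but 556 and 5696 with library totals. In whole liver, fewer hepatocytes and less RNA per hepatocyte cannot be told apart.

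Promoter sequence was held for 6 of the 10 members, in the RefSeq annotation of GRCr8, and the 250 bases before the annotated start of 4 of them are shown, because they cover the 2 members furthest below the normal control with PZH administration (Nr0b2, Cyp8b1) and both enzyme genes with motif matches (Cyp27a1, Amacr). Capitals mark exact matches, on either strand, to AGGTCA (a nuclear receptor half-site), TCAAGG (the core letters bound by NR5A receptors such as LRH-1) and TATAAA (the TATA box); the 3 motifs share no position in these sequences.
Nr0b2 (chr5:151062910-151063159, plus strand): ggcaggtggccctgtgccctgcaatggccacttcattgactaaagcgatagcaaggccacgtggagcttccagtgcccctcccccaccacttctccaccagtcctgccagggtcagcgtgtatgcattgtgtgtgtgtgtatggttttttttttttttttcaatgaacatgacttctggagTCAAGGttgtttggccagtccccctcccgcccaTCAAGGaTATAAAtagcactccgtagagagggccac
Cyp8b1 (chr8:130457593-130457842, minus strand): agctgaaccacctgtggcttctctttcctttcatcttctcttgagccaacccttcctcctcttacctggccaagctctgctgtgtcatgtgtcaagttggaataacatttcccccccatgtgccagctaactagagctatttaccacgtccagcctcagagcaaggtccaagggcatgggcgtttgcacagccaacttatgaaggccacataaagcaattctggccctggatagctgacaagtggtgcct
Cyp27a1 (chr9:83713282-83713531, plus strand): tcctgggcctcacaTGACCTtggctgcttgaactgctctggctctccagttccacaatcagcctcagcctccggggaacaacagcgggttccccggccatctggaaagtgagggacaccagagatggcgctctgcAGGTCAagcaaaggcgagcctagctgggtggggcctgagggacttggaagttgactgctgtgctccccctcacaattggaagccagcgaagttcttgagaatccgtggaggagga
Amacr (chr2:61673085-61673334, plus strand): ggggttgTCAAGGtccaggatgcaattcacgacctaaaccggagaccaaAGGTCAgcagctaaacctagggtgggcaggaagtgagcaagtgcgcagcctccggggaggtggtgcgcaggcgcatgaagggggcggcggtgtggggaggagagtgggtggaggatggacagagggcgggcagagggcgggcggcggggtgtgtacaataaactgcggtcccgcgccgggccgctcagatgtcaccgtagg

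The Nr0b2 sequence held TCAAGG at 69 to 64 and at 36 to 31 bases before the start, and TATAAA at 29 to 24. The Cyp27a1 sequence held AGGTCA at 115 to 110 bases before the start and, on the opposite strand, at 236 to 231. The Amacr sequence held TCAAGG at 243 to 238 and AGGTCA at 201 to 196. In the windows of Cyp8b1, Baat and Slc27a5 none of these letters was found. AGGTCA stood in 2 of the 6 member promoters and in 14.1% of 33469 promoters of the same length, TCAAGG in 2 of 6 and 12.6%, and TATAAA in 1 of 6 and 12.9%. These matches are descriptions of letters and say nothing about occupancy by a factor.

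To see how the genes stood in untreated liver, FPKM, a level per transcript length, was ranked within each group. In the normal control the most abundant members were Cyp8b1 (530 ± 173 FPKM, SD, n = 3) and Baat (529 ± 32.8), whose ranges overlapped, followed by Akr1d1 (420 ± 97.9) and Slc27a5 (247 ± 50.3). Cyp27a1 (137 ± 10.8) and Amacr (116 ± 43.4) overlapped, as did Nr1h4 (25.6 ± 2.44) and Cyp7a1 (21.2 ± 6.87), with Nr0b2 (39.8 ± 11.5) between these pairs and Cyp7b1 (5.52 ± 2.65) lowest. Messenger RNA of the rate-setting enzyme was therefore among the least abundant of the 10.
In the DEN model Akr1d1 stood first at 518 ± 115 FPKM, apart from Cyp8b1 at 164 ± 75.6, and Nr0b2 stood last at 9.08 ± 4.45. Among the other neighbours in that order, only Amacr and Nr1h4 did not overlap. In the PZH administration group Akr1d1 (794 ± 203 FPKM), Baat (463 ± 50.8) and Cyp8b1 (212 ± 33.0) held the first places without overlap. Cyp7a1 (28.5 ± 6.60 FPKM) there stood above Nr1h4 (17.2 ± 2.16) and Nr0b2 (14.6 ± 4.89), the reverse of the order of means in the normal control.

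The comparison of the DEN model with the normal control asked what DEN did to the pathway. By edgeR's quasi-likelihood test, at an adjusted p of 0.05, 8 members were lower and none higher: Cyp7a1, Cyp8b1, Cyp27a1, Amacr, Slc27a5, Baat, Nr1h4 and Nr0b2. Of all 14255 genes tested, 20.5% were lower and 25.3% were higher. The median log2 fold change of the 10 members was -2.18, against 0.03 over all genes. The same 8 members were called without each rat in turn. The study's own thresholds were a log2 fold change beyond 2 in either direction with an unadjusted p below 0.001. With these 4 members were lower, Cyp8b1, Amacr, Baat and Nr0b2, against 3.49% of all genes.

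The comparison of PZH administration with the DEN model asked what PZH changed in rats given DEN, and shares the M rats with the first comparison. It gave 6 members higher, Cyp7a1, Cyp27a1, Akr1d1, Amacr, Baat and Nr1h4, and none lower, where 8.72% of 14272 genes were higher and 10.3% lower. The median log2 fold change of the members was 1.42, against 0.01 over all genes. At the study's thresholds Cyp7a1 and Baat, 2 members, were higher, against 1.08% of all genes. The count of 6 at an adjusted p of 0.05 depended on single rats. It was 0 without M13 (7 members at an unadjusted p under 0.05 in edgeR) and 2 without M24. It was 3 without G27, 2 without G28, 4 without G42 and 10 without M17, the last with Cyp7b1 lower and the other 9 higher. The calls over all genes moved with it, from 19.1% of genes tested with all rats to 1.87% without M13 and 5.0% without M24. They were 14.9% without G27, 7.94% without G28, 8.22% without G42 and 22.6% without M17. This dependence was therefore not particular to the members. DESeq2, run with all 6 rats, called 8. Cyp7a1 and Baat passed in 5 of the 6 fits that left out a rat.

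Against the normal control, which shares rats with both other comparisons, the PZH administration group had 3 members lower, Cyp8b1, Nr1h4 and Nr0b2, and none higher, where 1.15% of 13348 genes were lower and 4.07% higher. The median log2 fold change of the members was -0.76, against -0.02 over all genes. At the study's thresholds no member was called (4 at an unadjusted p under 0.05 in edgeR), against 2.32% of all genes, and DESeq2 called 4 at an adjusted p under 0.05. The count was 0 without N1 (5 at an unadjusted p under 0.05 in edgeR) and 1 without N12, G28 or G42, where 1.51%, 2.44%, 1.56% and 2.66% of all genes were called, against 5.21% with all rats. That 1 member was Nr0b2, which passed in 5 of the 6 fits that left out a rat and in all 8 refits with another tool, scaling, filter, unit or set of rats, though not at the study's thresholds.

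**Figure D1:**
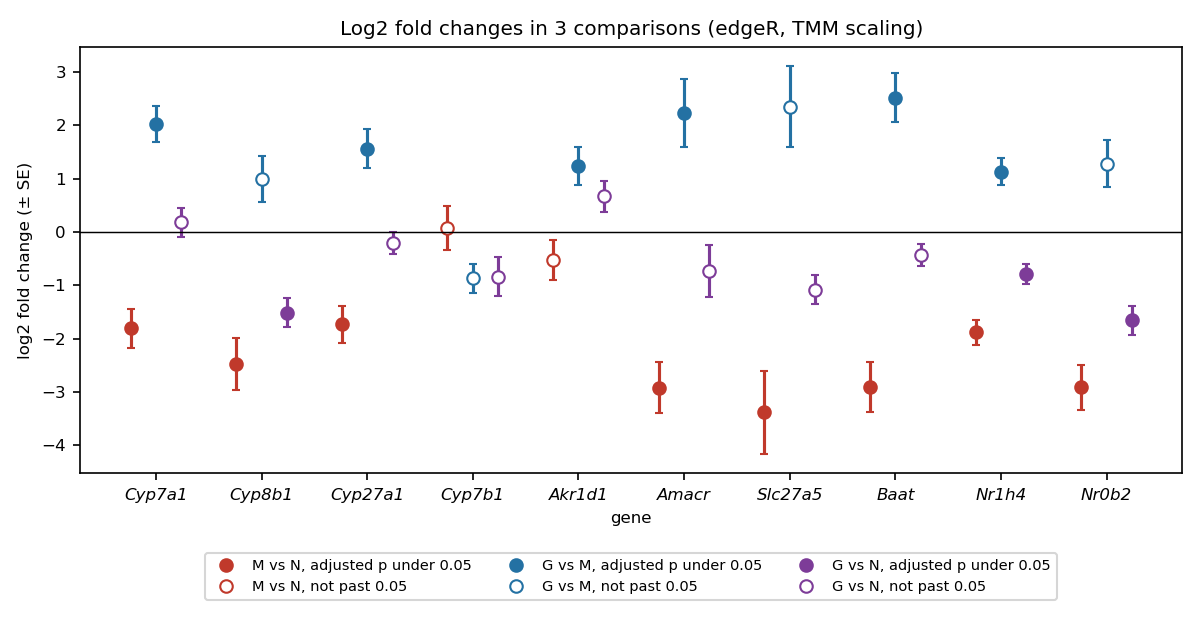
Log2 fold changes of the 10 members in the 3 comparisons (N normal control, M DEN model, G PZH administration), from edgeR with TMM scaling and 3 rats per group; bars are the SE. Filled points passed an adjusted p of 0.05 over all genes tested: 8 members lower in the DEN model, 6 higher with PZH administration against the DEN model, and 3 lower with PZH administration against the normal control. The estimate of Akr1d1 in the DEN model, which did not pass, is above 0 with library totals.

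Cyp7a1 (ENSRNOG00000009488), cholesterol 7-alpha-hydroxylase, was at 64.6 CPM in rat N1, 125 in N12 and 102 in N3, at 20.4 in M13, 42.5 in M17 and 19.7 in M24, and at 88.0 in G27, 113 in G28 and 130 in G42. Every DEN model rat was below every rat of the other groups, while the normal control and PZH administration rats overlapped. Groups without overlap were common over all genes. The DEN model rats were all above the normal control rats in 4476 of 14255 genes and all below in 3908. PZH administration rats were all above the DEN model rats in 2621 of 14272 genes and all below in 3209. Against the normal control the PZH administration rats were all above in 1817 of 13348 genes and all below in 1413. Cyp7a1 fell 3.50-fold in the DEN model (log2 fold change -1.81 ± 0.36, SE, adjusted p = 0.0045). It was 4.06-fold higher with PZH administration than in the DEN model (2.02 ± 0.33, adjusted p = 0.012, and 0.053 without M13). Its log2 difference from the normal control was 0.18, with a 95% confidence interval of -0.44 to 0.80, an interval that leaves room for a change of either sign.

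Cyp8b1 (ENSRNOG00000019481), the sterol 12-alpha-hydroxylase of cholic acid synthesis, was at 1458, 1646 and 906 CPM in N1, N12 and N3, at 254, 359 and 97.7 in M13, M17 and M24, and at 567, 389 and 431 in G27, G28 and G42. The 3 groups did not overlap, and the PZH administration rats lay between the others, close to the highest DEN model rat. Cyp8b1 fell 5.57-fold in the DEN model (-2.48 ± 0.49, adjusted p = 0.0041). The difference between PZH administration and the DEN model did not pass (0.99 ± 0.44, adjusted p = 0.15, interval -0.01 to 1.99). Cyp8b1 was 2.86-fold lower with PZH administration than in the normal control (-1.52 ± 0.27, adjusted p = 0.016), a call that was lost without N1, N12, G28 or G42 (adjusted p up to 0.099). Whether Cyp8b1 differed from Cyp7a1 in these responses was tested through their ratio within each rat.

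Cyp27a1 (ENSRNOG00000017188), the mitochondrial sterol 27-hydroxylase that opens the alternative pathway and also oxidises the side chain, was at 367, 424 and 414 CPM in N1, N12 and N3, at 86.4, 189 and 83.2 in M13, M17 and M24, and at 421, 283 and 337 in G27, G28 and G42. As with Cyp7a1, the DEN model rats stood below all others and the remaining groups overlapped. It fell 3.32-fold in the DEN model (-1.73 ± 0.35, adjusted p = 0.0044) and was 2.95-fold higher with PZH administration than in the DEN model (1.56 ± 0.36, adjusted p = 0.024), the latter a call kept in 1 of the 6 fits that left out a rat, the one without M17. Its log2 difference from the normal control was -0.21 (interval -0.69 to 0.28), with an estimate above 0 under library totals and hepatocyte marker scaling.
Cyp7b1 (ENSRNOG00000009730), the oxysterol 7-alpha-hydroxylase that acts after CYP27A1, did not follow it. It was at 10.9, 32.3 and 28.3 CPM in the normal control rats, at 30.7, 15.2 and 28.5 in M13, M17 and M24, and at 13.5, 13.2 and 13.5 in the PZH administration rats. The normal control and DEN model ranges overlapped, and the PZH administration rats were nearly equal to each other and below every DEN model rat. The log2 difference of the DEN model from the normal control was 0.07 (interval -0.87 to 1.01) and that of PZH administration from the DEN model was -0.87 (adjusted p = 0.058, interval -1.49 to -0.25). With library totals the latter passed, at -1.58.

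Akr1d1 (ENSRNOG00000013004), the 5-beta-reductase that bends the steroid ring, was at 1967, 1342 and 2354 CPM in N1, N12 and N3, at 942, 1809 and 1130 in M13, M17 and M24, and at 2356, 2987 and 3648 in G27, G28 and G42. Rat M17 lay within the normal control range, and all PZH administration rats were above all others, G27 only just above N3. The log2 difference of the DEN model from the normal control was -0.53 (adjusted p = 0.28, interval -1.37 to 0.32), and it was 0.31 with library totals. With PZH administration Akr1d1 was 2.35-fold higher than in the DEN model (1.23 ± 0.35, adjusted p = 0.045), a call kept in 1 of the 6 fits that left out a rat, the one without M17. With library totals Akr1d1 did not pass in this comparison (0.61, adjusted p = 0.12). Its estimate against the normal control was 0.67 (adjusted p = 0.27).
Amacr (ENSRNOG00000018662), the racemase that sets the side chain in the form peroxisomes can shorten, was at 317, 491 and 260 CPM in the normal control rats, at 26.7, 81.8 and 31.2 in M13, M17 and M24, and at 376, 187 and 75.6 in G27, G28 and G42. The PZH administration rats ran from the DEN model range (G42) to the normal control range (G27). Amacr fell 7.57-fold in the DEN model (-2.92 ± 0.48, adjusted p = 0.0018), and 12.2-fold without M17. It was 4.68-fold higher with PZH administration than in the DEN model (2.23 ± 0.64, adjusted p = 0.044), a call lost without M13, M24, G27 or G28. That fold was 7.40 without M17 and 2.86 without G27.

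Of the 8 members that fell in the DEN model, Slc27a5, a gene of conjugation, had the lowest estimate. Its 95% confidence interval, -5.16 to -1.60, held the estimates of all the others, and differences among members were not tested. Slc27a5 (ENSRNOG00000019626), the bile acid-CoA ligase, was at 790, 550 and 892 CPM in N1, N12 and N3, at 32.6, 162 and 16.7 in M13, M17 and M24, and at 437, 345 and 274 in G27, G28 and G42. The 3 groups did not overlap, and M17 stood far above the other DEN model rats. Slc27a5 fell 10.4-fold in the DEN model (-3.38 ± 0.78, adjusted p = 0.0081), and 30.0-fold without M17. Its difference between PZH administration and the DEN model was 2.35 ± 0.76 (adjusted p = 0.063, interval 0.61 to 4.08), and without M17 it passed, 14.4-fold higher (adjusted p = 0.0015). Its estimate against the normal control was -1.08 (adjusted p = 0.054), which passed without G27 (adjusted p = 0.023).
Baat (ENSRNOG00000007395), which joins the bile acid to taurine or glycine, was at 1071, 1115 and 1315 CPM in N1, N12 and N3, at 106, 274 and 82.5 in M13, M17 and M24, and at 835, 954 and 809 in G27, G28 and G42. The PZH administration rats lay just under the lowest normal control rat and far above the highest DEN model rat. Baat fell 7.48-fold in the DEN model (-2.90 ± 0.47, adjusted p = 0.0018) and was 5.70-fold higher with PZH administration than in the DEN model (2.51 ± 0.46, adjusted p = 0.014). Without M13 the latter did not pass (adjusted p = 0.063), and without M17 these folds were 12.3 and 9.22. Its difference from the normal control was -0.43 (adjusted p = 0.33, interval -0.91 to 0.05).

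**Figure D2:**
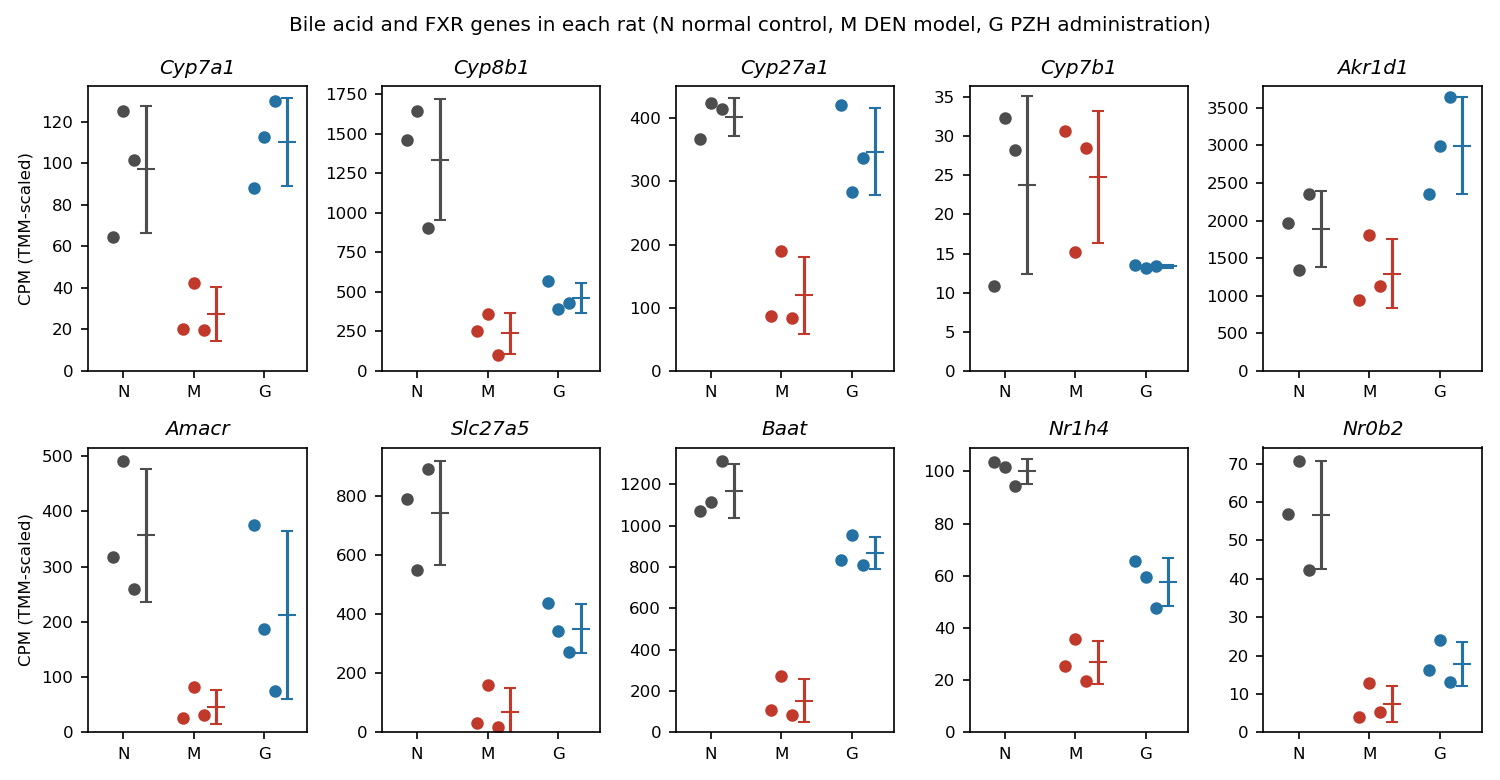
CPM (TMM scaling, linear axes from 0) of each member in each rat: points are rats, horizontal marks are means and bars are the SD over 3 rats of a group; the lower bar of Slc27a5 in the DEN model is cut at 0. Rat M17 is the highest DEN model rat in 9 of the 10 panels, and Cyp7b1 is the exception.

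Nr1h4 (ENSRNOG00000007197), which encodes FXR, was at 104, 102 and 94.4 CPM in N1, N12 and N3, at 25.4, 35.6 and 19.5 in M13, M17 and M24, and at 65.7, 59.4 and 47.5 in G27, G28 and G42. The 3 groups did not overlap and the PZH administration rats lay between the others. Nr1h4 fell 3.68-fold in the DEN model (-1.88 ± 0.23, adjusted p = 0.00054). It was 2.19-fold higher with PZH administration than in the DEN model (1.13 ± 0.25, adjusted p = 0.022) and 1.73-fold lower than in the normal control (-0.79 ± 0.19, adjusted p = 0.045). The first of these last 2 calls was lost without M13, M24 or G28, and the other was kept only without G27. With library totals neither passed (0.49, adjusted p = 0.088, and -0.57, adjusted p = 0.12).
Nr0b2 (ENSRNOG00000007229), which encodes SHP and whose promoter is shown above, was at 56.8, 70.7 and 42.4 CPM in N1, N12 and N3, at 4.12, 12.9 and 5.41 in M13, M17 and M24, and at 16.3, 24.1 and 13 in G27, G28 and G42. Rats M17 and G42 were nearly equal, and every PZH administration rat was well below every normal control rat. Nr0b2 fell 7.51-fold in the DEN model (-2.91 ± 0.42, adjusted p = 0.0011), and 11.7-fold without M17. The difference between PZH administration and the DEN model did not pass (1.28 ± 0.44, adjusted p = 0.077, interval 0.27 to 2.29), and passed without M17 (adjusted p = 0.0087). Nr0b2 was 3.16-fold lower than in the normal control (-1.66 ± 0.28, adjusted p = 0.013). The adjusted p of this call without N1 was 0.052.

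To set pairs of these genes against each other within a rat, where no scaling between libraries enters, 2 ratios of FPKM were formed after the values had been seen, Cyp8b1 to Cyp7a1 and Nr0b2 to Nr1h4. The ratio of Cyp8b1 to Cyp7a1 was 40.6, 23.6 and 16.0 in N1, N12 and N3, 22.4, 15.2 and 8.90 in M13, M17 and M24, and 11.6, 6.21 and 5.96 in G27, G28 and G42. The PZH administration rats were all below the normal control rats, with G27 inside the DEN model range and G28 and G42 under it. The ratio was 3.3-fold lower with PZH administration than in the normal control (exact two-sided permutation test, p = 0.1, the smallest that 3 against 3 rats can give, adjusted p = 0.2 over 6 comparisons). In the other comparisons of this ratio the groups overlapped (exact permutation p = 0.2 in both, adjusted p = 0.24).
The ratio of Nr0b2 to Nr1h4 was 1.5, 1.90 and 1.22 in N1, N12 and N3, 0.443, 0.987 and 0.756 in M13, M17 and M24, and 0.675, 1.11 and 0.749 in G27, G28 and G42. Both groups given DEN lay below the normal control and overlapped each other. The ratio was 2.19-fold lower in the DEN model and 1.84-fold lower with PZH administration than in the normal control (exact permutation p = 0.1 in both, adjusted p = 0.2). PZH administration against the DEN model gave an exact permutation p of 0.6. None of the 6 comparisons could pass a threshold of 0.05 in this design.

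**Figure D3:**
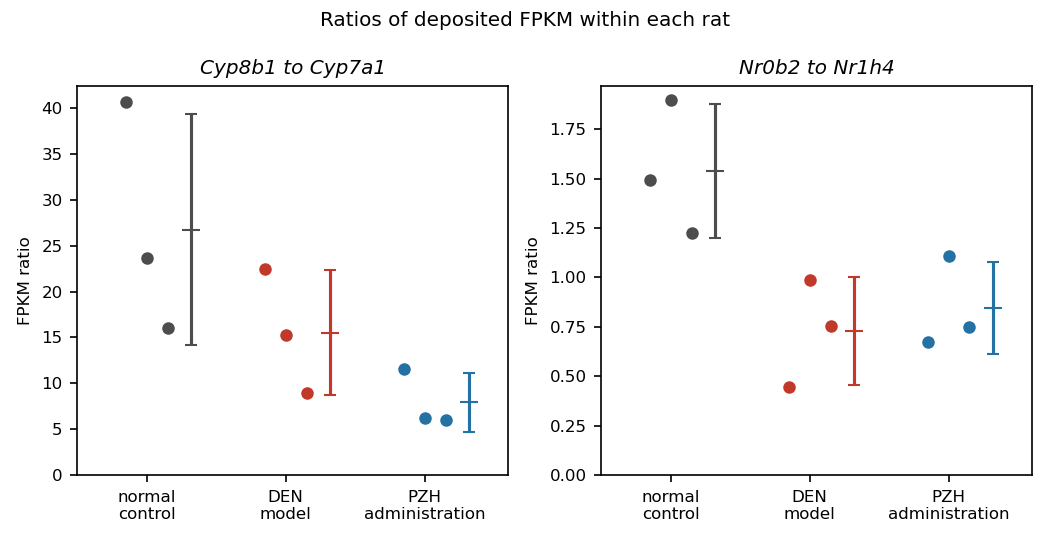
Ratio of Cyp8b1 to Cyp7a1 FPKM and of Nr0b2 to Nr1h4 FPKM in each rat, by group (points are rats, marks are means, bars are the SD over 3 rats). The PZH administration rats lie between 5.96 and 11.6 for the first ratio, below the normal control rats at 16.0 to 40.6. For the second, the normal control rats at 1.22 to 1.90 lie above all rats given DEN.

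Markers of hepatocytes moved with the members. The summed level of 10 hepatocyte markers was 176510 to 192361 CPM in the normal control, 36252 to 87648 in the DEN model, where M17 was highest, and 139304 to 190400 in the PZH administration group. Markers of the ductular list moved the other way, at 30.6 to 43.1, 281 to 817 (M17 lowest) and 102 to 134 CPM in the 3 groups. All 8 ductular markers were higher in the DEN model, 8 were lower with PZH administration than in the DEN model, and 7 were higher with PZH administration than in the normal control. Of all genes, 25.3%, 10.3% and 4.07% were called in these directions. The 8 lower calls became 3 without M13, M24 or G42. Stellate and myofibroblast markers summed to 195 to 323 CPM in the normal control, 1050 to 3210 in the DEN model and 599 to 725 in the PZH administration group. Of 8, 7 were higher in the DEN model, 5 lower with PZH against the DEN model and 4 higher with PZH against the normal control. The 5 became 2 without M13 or G28 and 3 without G27 or G42, and the 4 became 1 without N1 or G28. Of the hepatocyte markers, 4 were lower in the DEN model (Alb, Ambp, Apoh and Ttr) and 3 of these, all but Alb, were higher with PZH administration than in the DEN model. Of all genes, 20.5% and 8.72% were called in these directions. The 4 became 9 with DESeq2 and 9 without M17. The 3 became 7 with DESeq2, 9 without M17, 1 without M24, G27, G28 or G42, and 0 without M13 (3 at an unadjusted p under 0.05 in edgeR). None passed between PZH administration and the normal control in edgeR (2 at an unadjusted p under 0.05) or DESeq2, and 2 were lower without G27.

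The fits were repeated with each library scaled to its summed hepatocyte marker counts, so that a member is read against those markers. On this scale the all-gene median log2 fold change was 1.88 for the DEN model against the normal control. For PZH administration against the DEN model it was -1.64. In the DEN model 5 members were then lower, Slc27a5 (-2.01), Baat (-1.32), Amacr (-1.32), Nr0b2 (-1.28) and Cyp8b1 (-0.87), against 2.22% of all genes. The members Cyp7b1 (2.01) and Akr1d1 (1.23) were higher, against 79.9% of all genes. Cyp7a1 (-0.14, adjusted p = 0.77), Cyp27a1 (-0.07, adjusted p = 0.87) and Nr1h4 (-0.15, adjusted p = 0.75) did not pass. The first 5, with both genes of conjugation and that of SHP among them, thus passed as falling further than the sum of the hepatocyte markers. For the rate-setting enzyme no such difference was detected. Cyp8b1 was the least clear of the 5, with a 95% confidence interval of -1.62 to -0.12. Set against its marker sum, Cyp8b1 in M13 was not below that in N3. No rat was left out on this scale. Falling further than the sum was not particular to them: of the 10 markers themselves, 3 were lower on this scale, Ttr (-2.28), Ambp (-0.78) and Apoh (-0.68), and 2 were higher, Apoa1 (1.37) and Tf (0.71).
With PZH administration against the DEN model, Slc27a5 (1.15) and Baat (1.14) were higher on this scale, as was the hepatocyte marker Ttr (2.0), against 1.09% of all genes, and Cyp7b1 (-2.61) was lower, against 78.4%. The estimates of Cyp8b1 (-0.45), Nr1h4 (-0.41), Akr1d1 (-0.27) and Nr0b2 (-0.15) turned to the other sign without passing, and Cyp7a1 was at 0.59 (adjusted p = 0.24). Against the normal control Cyp8b1 (-1.32, adjusted p = 0.015) and Nr0b2 (-1.43, adjusted p = 0.020) passed on this scale too, and Nr1h4 (-0.57, adjusted p = 0.19) did not. Albumin made up 48.5% to 53.0% of the marker counts in the normal control, 35.2% to 41.5% in the DEN model and 49.4% to 51.7% in the PZH administration group, so 1 gene weighs heavily in this scale. The part of cell composition in the members' changes was not tested beyond this scaling.

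**Figure D4:**
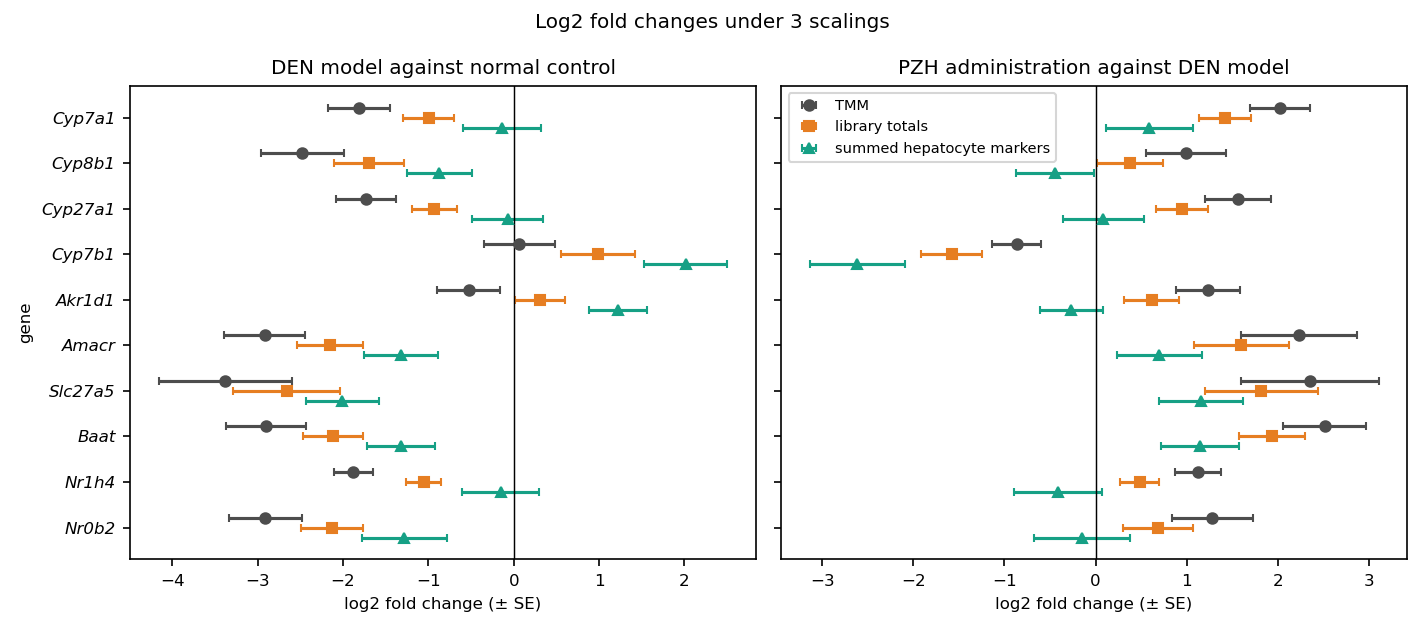
Log2 fold changes of the 10 members under 3 scalings (TMM, library totals, summed hepatocyte marker counts), for the DEN model against the normal control and for PZH administration against the DEN model; points are estimates and bars their SE. The 5 members Slc27a5, Baat, Amacr, Nr0b2 and Cyp8b1 are lower in the DEN model under each of the 3, while Akr1d1 turns from -0.53 to 0.31 and 1.23.

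The other genes of bile acid synthesis were taken from a list of 14, of which 13 could be tested (Cyp46a1 was too low). In the DEN model 10 were lower and 2 higher, where 20.5% of all genes were lower and 25.3% higher, and the list's median log2 fold change was -1.45. Acox2, the peroxisomal oxidase of the side chain, fell by 2.53 (± 0.45, adjusted p = 0.0025) and Slc27a2, an acyl-CoA synthetase, fell by 2.12 (± 0.35, adjusted p = 0.0018). The higher genes were Ch25h, cholesterol 25-hydroxylase, at 2.80 (± 0.37, adjusted p = 0.00071) and Ephx1, microsomal epoxide hydrolase.
With PZH administration against the DEN model 10 of the 13 were higher and 1, Ch25h, was lower (median 1.07), where 8.72% of all genes were higher and 10.3% lower. Acox2 rose by 1.76 (adjusted p = 0.031), Cyp39a1, an oxysterol 7-alpha-hydroxylase, by 1.74 (adjusted p = 0.019) and Cyp2c22, which RefSeq lists with the synonym Cyp2c70, by 1.71 (adjusted p = 0.026). Only Ephx1 passed against the normal control (1.47, adjusted p = 0.014, median -0.32), where 4.07% of all genes were higher. The 11 calls against the DEN model became 1 without M13, M24 or G28, 2 without G42 and 5 without G27. That of Ephx1 was 0 calls without N1 (6 genes at an unadjusted p under 0.05 in edgeR) or N12 (4 genes), and 3 without G27. With library totals 7 were lower and 2 higher in the DEN model, and 6 higher and 1 lower with PZH administration against it. With hepatocyte marker scaling the medians were 0.34 and -0.51 in these comparisons, of the other sign. The all-gene medians on that scale were 1.88 and -1.64, so the list still lay below all genes in the first and above them in the second.

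Of 23 partners of FXR and regulators of Cyp7a1, 20 were in the table, and Klb, Fgf15 and Sirt1 were not analysed here. In the DEN model 11 were lower and 3 higher (median -1.03), against the same 20.5% and 25.3% of all genes. Rxra, the partner FXR binds DNA with, fell by 1.94 (adjusted p = 0.0026), and Hnf4a (-1.64) and Nr5a2 (-1.24), which encode HNF4-alpha and LRH-1, activators of Cyp7a1 and Cyp8b1, fell too. Vdr, a receptor that also binds lithocholic acid, had 0, 0 and 2 counts in N1, N12 and N3 but 20.3, 9.11 and 20.7 CPM in M13, M17 and M24 and 3.20, 9.67 and 6.34 CPM in G27, G28 and G42. It passed as higher in both groups against the normal control (adjusted p = 0.00015 and 0.0051). Gpbar1, the membrane receptor for bile acids, had 0 counts in every normal control rat and was at least 6.0-fold higher in the DEN model, against a floor of 3 counts per library.
With PZH administration against the DEN model 6 of the 20 were higher and 1, Gpbar1, was lower (median 0.91, adjusted p of Gpbar1 0.016), against 8.72% and 10.3% of all genes. Cebpa (1.29, adjusted p = 0.017), Ppara (1.23, adjusted p = 0.024), Hnf4a (1.11) and Nr5a2 (1.11) were among the higher genes. Vdr was the 1 call of 19 genes tested against the normal control (median -0.27), near the 4.07% of all genes that were higher. The 7 calls against the DEN model became 0 without M13 or M24 (10 genes at an unadjusted p under 0.05 in edgeR, in both), 12 without M17, 3 without G28 and 1 without G42, and the 1 call against the normal control became 5 without G27. Scaling mattered more here: with library totals 7 were lower and 5 higher in the DEN model, and 1 was higher and 4 lower with PZH administration against it, where Hnf4a (0.47, adjusted p = 0.11) and Nr5a2 (0.49, adjusted p = 0.12) did not pass. With hepatocyte marker scaling the medians were 0.74 and -0.63 in these comparisons, of the other sign, where the all-gene medians were 1.88 and -1.64.

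Of 12 targets of FXR other than Nr0b2, 10 were in the table (Abcb4 and Ugt2b1 were not analysed here) and 8 could be tested. In the DEN model 3 were lower, Apoc2 (-3.36, adjusted p = 0.0016), a cofactor of lipoprotein lipase, Abcb11 (-2.30, adjusted p = 0.0031), the bile salt export pump, and Fetub (-1.95, adjusted p = 0.015), and Pltp was higher (median -0.83), where 20.5% of all genes were lower and 25.3% higher. Abcb11 was 772, 683 and 693 CPM in N1, N12 and N3, 97.0, 249 and 84.5 in M13, M17 and M24, and 617, 648 and 414 in G27, G28 and G42, so that M17 again led its group. With PZH administration against the DEN model Abcb11 rose by 1.99 (adjusted p = 0.022) and Pltp fell by 1.16 (adjusted p = 0.027), the 2 calls of this list (median 0.68). These calls, 1 higher and 1 lower of 8 genes, are near the 8.72% and 10.3% of all genes. They became 0 without M13, M24 or G28 (2, 2 and 4 genes at an unadjusted p under 0.05 in edgeR), 6 without M17 and 1 without G27 or G42. No target passed against the normal control in edgeR (3 at an unadjusted p under 0.05, median -0.35), DESeq2 called 1, and edgeR without G27 called 2. Slc51b, a subunit of the basolateral bile acid exporter, had 0 counts in every normal control and PZH administration rat. With library totals the medians of the list were 0.02 for the DEN model against the normal control and 0.05 for PZH administration against the DEN model. With hepatocyte marker scaling they were 0.96 and -0.85. The all-gene medians were 0.89 and -0.67 with library totals, and 1.88 and -1.64 with hepatocyte marker scaling.

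Among 14 genes of cholesterol supply and efflux, 9 were lower and 1 higher in the DEN model (median -0.87), against 20.5% and 25.3% of all genes. Lcat (-2.96, adjusted p = 0.0018), which esterifies plasma cholesterol, and Lipc (-2.94, adjusted p = 0.00032), hepatic lipase, fell most, and Star, a carrier of cholesterol into mitochondria, was higher (3.10, adjusted p = 0.011) at low levels. With PZH administration against the DEN model 5 were higher and none lower (median 0.62), against 8.72% and 10.3% of all genes, among them Lcat (1.90, adjusted p = 0.029) and Lipc (1.82, adjusted p = 0.014). Against the normal control Lipc (-1.16) and Lcat (-1.10) were the 2 calls of 13 genes tested (adjusted p = 0.019 for both, median -0.30), where 1.15% of all genes were lower. The 5 calls became 0 without M13 (5 genes at an unadjusted p under 0.05 in edgeR), 1 without M24 or G28, 3 without G27 or G42 and 9 without M17. The 2 calls became 0 without N1, N12, G28 or G42 (3, 3, 3 and 4 genes at an unadjusted p under 0.05 in edgeR). With library totals 3 were lower and 3 higher in the DEN model, and 2 higher and 1 lower with PZH administration against it. With hepatocyte marker scaling the medians were 0.88 and -0.92, where the all-gene medians were 1.88 and -1.64.

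Markers of other cells were measured beside these genes. Macrophage markers summed to 428 to 836 CPM in the normal control, 396 to 531 in the DEN model and 223 to 516 in the PZH administration group, with 2 of 6 lower in the DEN model, 3 lower with PZH against the DEN model and no call against the normal control in edgeR (1 at an unadjusted p under 0.05) or DESeq2. Lymphocyte markers summed to 23.3 to 33.7, 65.1 to 155 and 36.3 to 49.3 CPM, with 3 of 4 tested higher in the DEN model and 1 of 3 lower with PZH against it and no call against the normal control in edgeR (1 at an unadjusted p under 0.05) or DESeq2. Endothelial markers summed to 210 to 296, 170 to 336 and 214 to 305 CPM, with 2 of 4 higher and 1 lower in the DEN model, 1 lower with PZH against it and 1 higher against the normal control. Gut epithelium markers summed to 190 to 213, 16.9 to 488 and 30.1 to 122 CPM, with 2 of 3 tested higher in the DEN model, 1 lower with PZH against it and 1 higher against the normal control. Nearly all of the normal control sum was 1 gene, Cdh17, at a mean of 202 CPM. Its mean was 99.2 in the DEN model (highest rat 273) and 85.9 with PZH administration, and it did not pass with all rats. Cdh17 was thus highest on average in normal liver, and the summed level is not read as an amount of gut epithelium. The 2 higher genes, Vil1 and Slc10a2, had normal control means of 0.23 and 0.45 CPM. Of the gut markers, Fabp6, the ileal bile acid carrier, had 0 counts in all 9 rats, and Cdx1 had 0 in every normal control and PZH administration rat. These marker counts are small and rest on single rats. Of all genes tested, 25.3% were higher and 20.5% lower in the DEN model, and 8.72% higher and 10.3% lower with PZH against it. Against the normal control 4.07% were higher and 1.15% lower with PZH. The 1 of 4 endothelial markers lower in the DEN model is near its share. The 3 macrophage calls with PZH against the DEN model became 0 without M13, M24 or G42 (3, 3 and 5 at an unadjusted p under 0.05 in edgeR) and 1 without G28, and the 2 in the DEN model became 1 without M13 or M24. Without G27, 1 macrophage marker was lower than in the normal control. The 3 lymphocyte calls in the DEN model became 1 without N1 or N3, and the 1 call with PZH became 2 without M17 and was lost without any other rat. The 3 endothelial calls in the DEN model became 1 without N1, and that against the normal control was lost without every rat but G27. The endothelial call with PZH against the DEN model was lost without M13, M24, G27 or G42, and without M17 1 marker was higher in its place. The 2 gut calls in the DEN model became 4 without M17, and the 1 with PZH against it became 3 without M17, 2 without M24 and none without M13 or G42. The gut call against the normal control became 2 without G27 and was lost without N1, N12, G28 or G42. With library totals 3 of the 6 macrophage markers were higher in the DEN model and 1 lower. The part of these cells in the members' changes was not tested.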

How the data were processed

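Liver RNA of 9 rats was sequenced, 1 library per rat. Per the labels, the authors trimmed reads with fastp, aligned them with HISAT2 2.1.0, quantified genes with StringTie 1.3.3b and tested them with edgeR 3.30.3; the genome build was not given in the sources used here. The deposited table gives raw gene counts and the authors' FPKM per rat. Its group means, fold changes and P and Q values were not used.

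Genes were filtered with filterByExpr, scaled by TMM and fitted pairwise on 6 rats with edgeR 4.0.16 (glmQLFit, glmQLFTest) in R 4.3.3, with Benjamini-Hochberg adjustment over all genes tested and a threshold of 0.05. SE is the absolute log2 fold change over the square root of F. CPM per rat used TMM factors over all 9 rats. A group value is a mean ± SD of 3 separate rats. Alternatives were DESeq2 1.42.0, library totals, summed hepatocyte markers as library size, no filter, at least 10 counts in every rat, all 9 rats in one fit, the study's thresholds, an added absolute log2 fold change above 1, limma 3.58.1 on log2(FPKM + 1) and log2(FPKM + 0.1) with mean FPKM of at least 1, and each rat left out. The fits were run on simulated data in which equal numbers of genes rose and fell. That setting lacks the group difference in scaling factors seen here, so it does not bear on the choice of scaling. The members and lists were chosen with earlier results of these data known. Named genes of a list are up to 3 with the largest changes that passed, plus genes with 0 counts in a whole group, and 1 gene that this rule names is not reported here; Hnf4a, Nr5a2 and the per-rat values of Abcb11 were chosen after their values were seen. Promoters came from RefSeq (GRCr8), and protein sequences were not used here.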

Additional observations from a re-analysis of the deposited data

How the results depend on the processing

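Of the 3 counts of called members, that for the DEN model against the normal control was 8 and became 4 at the study's thresholds. It was 8 without each rat in turn and 7 or 8 otherwise. The 7, with hepatocyte marker scaling, were 5 lower and 2 higher, Akr1d1 and Cyp7b1. Cyp7a1, Cyp27a1 and Nr1h4 were not called there. The count for PZH administration against the DEN model was 6 and became 3 with hepatocyte marker scaling and 2 at the study's thresholds. Leaving out a rat moved it from 0 (without M13) to 10 (without M17). The count for PZH administration against the normal control was 3 and became 1 with all 9 rats in one fit, 1 with limma on FPKM at either pseudocount and 0 at the study's thresholds. Leaving out a rat moved it from 0 (without N1) to 4 (without G27).

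Estimates changed sign in these cases. For the DEN model against the normal control, Akr1d1 was 0.31 with library totals, 1.23 with hepatocyte marker scaling, and 0.31 on log2(FPKM + 1) and 0.31 on log2(FPKM + 0.1). Cyp7b1 ranged from -0.30 to 0.35 without single rats. For PZH administration against the DEN model, hepatocyte marker scaling gave -0.45 for Cyp8b1, -0.27 for Akr1d1, -0.41 for Nr1h4 and -0.15 for Nr0b2, and the log2 ratio of Nr0b2 to Nr1h4 ranged from -0.067 to 0.51 without single rats. For PZH administration against the normal control, Cyp27a1 was 0.017 with library totals, 0.012 with hepatocyte marker scaling and 0.0063 with FPKM at both pseudocounts, and Cyp7a1 ranged from -0.062 to 0.38 without single rats. None of these estimates passed except that of Akr1d1 with hepatocyte marker scaling. The cause was not tested. Of the other estimates of single members, 379 kept their direction and side of the threshold, 66 no longer passed and 19 newly passed. Over all genes, the calls for PZH administration against the DEN model numbered 2722, but 6252 with library totals, 11341 with hepatocyte marker scaling, 5441 and 5471 with limma on FPKM, and 271 to 3319 without single rats. Those for the DEN model against the normal control numbered 6529, but 11710 with hepatocyte marker scaling. Those for PZH administration against the normal control numbered 696, but 1320 with DESeq2, 340 with at least 10 counts in every rat, 387 and 378 with limma on FPKM, and 207 to 1326 without single rats. No paired analysis was possible because the groups share no rat numbers.

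With 3 rats per group, M17 highest in 9 members and scaling factors that differ by group, calls against the DEN model rest on few rats. Depth did not limit the members.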
